A study of Mus musculus with 6 samples.

Results

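The genes described here build ribosomes or unwind RNA. They were taken by a naming rule, drawn up with earlier results of these data known: the Ddx and Dhx RNA helicases, the numbered Nop, Utp, Rrp, Noc, Nol and Gnl genes, the Polr1 subunits of RNA polymerase I, Imp3 and Imp4, and 20 further genes such as Nat10, Ncl, Npm1, Pes1 and Tsr1. The rule took 124 protein-coding genes of a RefSeq gene table. Of these, 21 genes carried 28 of the 1876 summits in a list of N4-acetylcytidine (ac4C) pull-down signal, which covered 1485 genes in all. The other 103 genes had no listed summit.

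The cells were 32D, a wild-type mouse bone marrow line kept in medium with fetal serum and 10 ng/mL interleukin 3. Poly(A) RNA from these cells was pulled down with an antibody against ac4C (2 libraries) or with control IgG (2 libraries), or sequenced as input (2 libraries). The 6 libraries came from the same genotype and medium, no treatment was compared, and the labels do not say whether a pair came from separate cultures. The values are those of 1 list called on the merged ac4C libraries, so none belongs to a single library, no spread between replicates can be given, and the depth of each library is unknown. Because the list holds no expression level, the label of the line could be checked only loosely. Of 5 myeloid marker genes 3 had a summit (Spi1, Csf2rb and Fcer1g, not Mpo or Cebpa), against 0 of 5 B cell and 0 of 5 T cell marker genes. At the 6.71% share of all protein-coding genes, 0 of 5 says nothing particular about either lineage.

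As background, a ribosome starts in the nucleolus, where RNA polymerase I transcribes a long precursor ribosomal RNA. Small nucleolar RNPs modify this precursor, the small subunit processome folds and cuts it, and separate sets of factors carry the small and the large subunit to the cytoplasm. DEAD-box and DEAH-box helicases drive rearrangements in this pathway and in splicing, mRNA export and translation. The enzyme that writes ac4C, Nat10, is itself a nucleolar protein that acetylates ribosomal RNA. The list here is from poly(A) RNA, and no link between that activity and the mRNAs of these genes was tested.

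Each summit has a fold enrichment from the authors' peak caller. That fold is the height of the ac4C pull-down signal over a background that was the same, 1.11 fragments, for every summit. The height in fragments was therefore recovered from the fold, and each height is given with an exact 95% Poisson interval that covers counting error only. Fragments copied by PCR are not independent molecules, so the true error is wider. Neither number has a term for input, IgG or the amount of the transcript. More copies of an mRNA and more ac4C on each copy cannot be told apart in these values.

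The tallest member summit lay at the very start of the Nol7 transcript, and it is the summit whose sequence could be placed. The window below is the coding sequence of Nol7 from its first ATG to the end of the RefSeq start window, nt 30 to 50 of the RefSeq transcript (GRCm38.p6, chr13:43398405-43398425, plus strand, 5′ to 3′). Capitals mark the codon that holds nt 39, the listed summit position.
Nol7: atggtgcagCTCcggccccgc
The placement assumes that the listed transcript ENSMUST00000071926 starts at the same base as the RefSeq one, which was not checked. It puts the summit in coding sequence, the region that the authors' list also gives. A summit marks the highest point of overlapping fragments and not the modified base.

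Listed summits were found on a larger share of these genes than of protein-coding genes at large. Of the 124 genes, 21 had one, or 16.9% (exact Clopper-Pearson 95% interval 10.8% to 24.7%), against 6.71% of the 21900 protein-coding genes of the table. The rule was drawn up with these data known, so the difference is a description. The wider background includes genes that the cells may not express, and expression was not measured. Among members with a helicase name the share was 7 of 53, or 13.2% (5.48% to 25.3%), and among the others it was 14 of 71, or 19.7% (11.2% to 30.9%). These intervals overlap.

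The share ranged widely over the steps of the pathway, with wide intervals. Of the 5 late small subunit factors that the naming rule takes, 3 were listed (interval 14.7% to 94.7%). The rule leaves out Bysl, Riok1, Riok2 and Riok3, which also serve the small subunit and were unlisted. Of the 13 helicases with a role in splicing, 6 were listed (46.2%, 19.2% to 74.9%). Large subunit assembly factors had 5 of 26 (19.2%, 6.55% to 39.4%). The group placed with the small subunit processome had 2 of 30 (6.67%, 0.818% to 22.1%). It had the most genes, and its share was near that of all protein-coding genes. Nol7 and Nop9, both listed, were placed in no group and are not counted there. Nop9 also serves small subunit assembly, so the share of the processome group depends on how that group was drawn. Helicases with other roles had 1 of 25 (4%, 0.101% to 20.4%), also near the share of all protein-coding genes. No test was run between groups, since the groups are small and were drawn up with results of these data known.

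**Figure D1:**
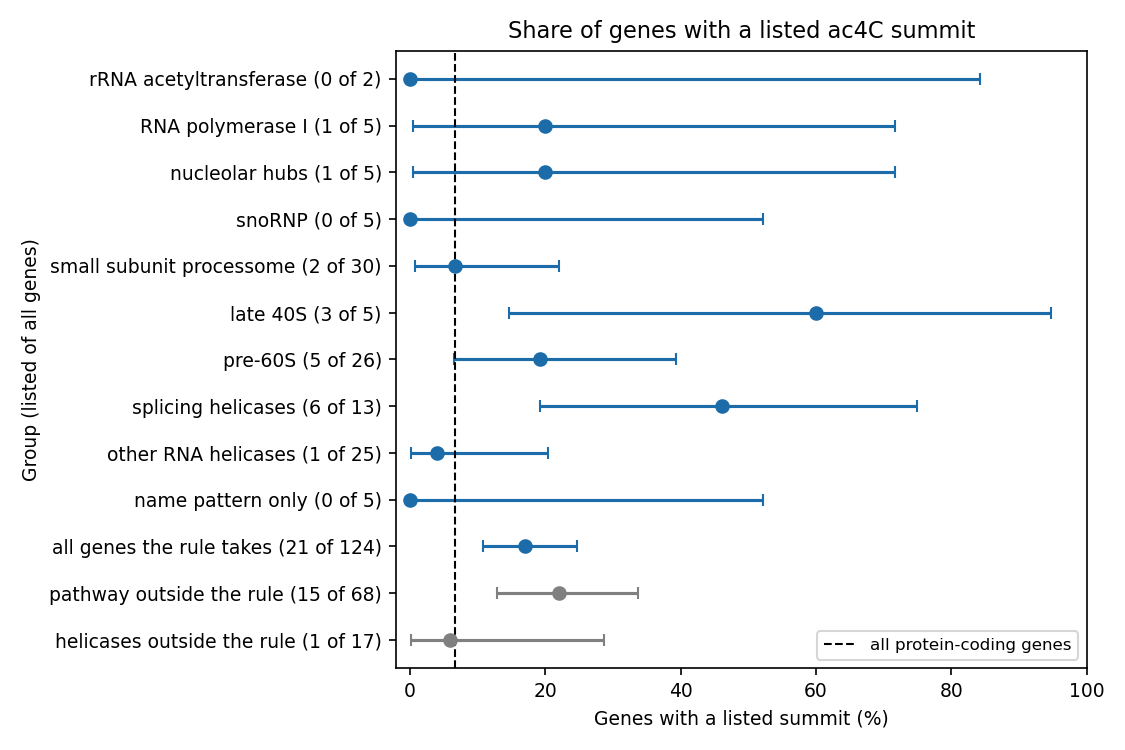
Percentage of genes with a listed ac4C summit (x axis) in each role group (y axis, with listed and total genes), with exact 95% Clopper-Pearson intervals; the dashed line is the share of all protein-coding genes, 6.71%, and the 2 grey points are genes outside the naming rule. Splicing helicases and late small subunit factors lie to the right of the line, with wide intervals, and the small subunit processome lies on it.

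The enzyme and its partner were not on the list. Neither Nat10 nor Thumpd1, whose protein helps Nat10 acetylate tRNA, had a listed summit. The same held for all 5 genes of the small nucleolar RNPs: Fbl, the methyltransferase of box C/D particles, Dkc1, the pseudouridine synthase of box H/ACA particles, and Nop10, Nop56 and Nop58. The exact upper limits of these counts are 84.2% for 0 of 2 and 52.2% for 0 of 5, and at the 6.71% share of all protein-coding genes such counts say nothing particular about either group. Of 5 nucleolar hub genes, Ncl, Npm1, Tcof1 and Ddx21 were unlisted and Nolc1 was listed. A gene that is not listed is not shown to lack ac4C, because the sources used here do not give the filter that chose the entries.

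Of the 5 Polr1 genes matched to RefSeq, 1 had a listed summit (20%, 0.505% to 71.6%), beside 6.71% of all protein-coding genes. Polr1f, Polr1g and Polr1h were not matched and are not counted. Polr1c, a subunit shared by RNA polymerases I and III, had a 3′ untranslated summit at nt 1154 with fold enrichment 27.1, or 56 fragments (42.3 to 72.7). It was higher than 84.8% of all summits. Polr1a and Polr1b, which encode the catalytic core of RNA polymerase I, and Polr1d and Polr1e had none. Nolc1, the chaperone of small nucleolar RNPs, had a coding summit at nt 70 with a fold of 7.59, or 15 fragments (8.40 to 24.7). This value was in the lower part of the list, above 28.3% of all summits.

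Both listed summits of the genes placed in the small subunit processome group were low. Nol7 and Nop9, which were left without a role group, are not counted here. Their folds were 56.0 and 17.1, and Nop9 also serves small subunit assembly. The low values thus hold for the group as drawn and not for all small subunit factors. Bms1, a GTPase of the processome, had the lowest fold of any member, 5.70 at nt 3286 of coding sequence, from 11 fragments (5.49 to 19.7). Wdr75, a subunit needed for the transcription of the precursor RNA, had a fold of 7.59 at nt 1619 of coding sequence, from 15 fragments (8.40 to 24.7). Their intervals overlap, so the order of these 2 genes is not resolved. The unlisted processome genes included Heatr1, Wdr43, Imp3, Imp4 and all 11 Utp genes. The 5 helicases placed with the processome, Ddx10, Ddx47, Ddx49, Ddx52 and Dhx37, were unlisted too.

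The late factors, which ripen the small subunit on its way to the cytoplasm, reached higher values. Pno1, the placeholder protein at the rRNA end that Nob1 will cut, had a coding summit at nt 670 with a fold of 25.2, from 52 fragments (38.8 to 68.2). Tsr1, a GTPase-like factor that blocks early joining of the subunits, had a 3′ untranslated summit at nt 3262 with a fold of 15.2, from 31 fragments (21.1 to 44.0). The endonuclease gene Nob1 had a coding summit at nt 198 with a fold of 8.07, from 16 fragments (9.15 to 26.0). The interval of Pno1 lies above that of Nob1, and that of Tsr1 overlaps both. Ltv1 and Rrp12 were unlisted, as were Bysl, Riok1, Riok2 and Riok3, small subunit genes outside the naming rule.

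Large subunit assembly was represented by coding summits alone, 6 on 5 genes. Rrp1, an early nucleolar factor, had the highest, a fold of 18.5 at nt 337 from 38 fragments (26.9 to 52.2). Its relative Rrp1b had 10.9 at nt 1988 from 22 fragments (13.8 to 33.3). Noc2l, whose yeast counterpart escorts precursor particles out of the nucleolus, had 13.3 at nt 874 from 27 fragments (17.8 to 39.3). Neighbours in this order have overlapping intervals.

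The remaining large subunit genes had summits near their 5′ ends. Nop16 had 2 coding summits on different transcripts, 13.3 at nt 126 from 27 fragments (17.8 to 39.3) and 9.02 at nt 156 from 18 fragments (10.7 to 28.4). They lie 30 nt apart in transcript position and may be 1 site counted on 2 isoforms. Pes1, which with Bop1 and Wdr12 forms the PeBoW complex, had 7.12 at nt 84 from 14 fragments (7.65 to 23.5). Its partners Bop1 and Wdr12 were unlisted, as were Nop2, Ftsj3, Gnl2, Gnl3, Gnl3l and the 8 helicases placed in this group.

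Of the 3 members left without a role group, 2 were listed and both had their summit close to the transcript start. The summit of Nol7, a nucleolar protein gene, is the one printed above: a fold of 56.0 from 117 fragments (96.8 to 140.2), at nt 39. It ranked at place 55 of 1876 summits. Its interval lies above those of all other member summits except the one in the 3′ untranslated region of Dhx15. Nop9, which encodes an RNA-binding protein of small subunit assembly, had a fold of 17.1 at nt 127 of coding sequence, from 35 fragments (24.4 to 48.7). Nol12 was unlisted.

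**Figure D2:**
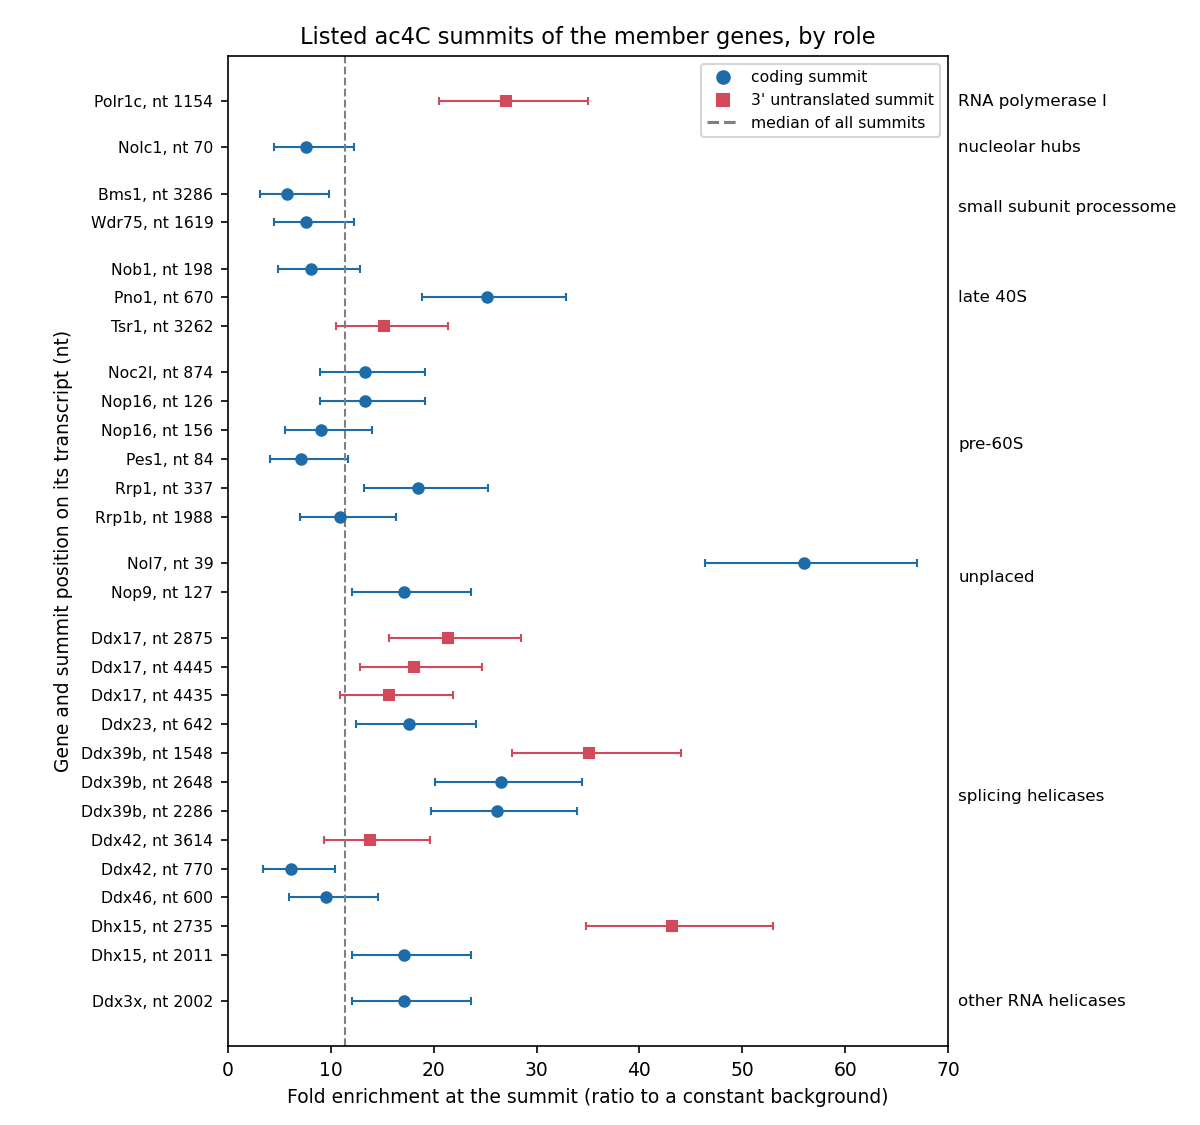
Fold enrichment (x axis, ratio to a constant background) of each of the 28 member summits, labelled by gene and position and grouped by role; bars are 95% Poisson intervals of the height in fragments, put on the fold scale, blue circles are coding and red squares 3′ untranslated summits. Nol7 reaches 56.0 and Dhx15 43.2, and splicing helicases hold 6 of the 8 red squares. Both summits of the small subunit processome group, which leaves out Nol7 and Nop9, lie left of the dashed median of all summits (11.4).

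Among the helicases, the listed genes were mainly those of splicing, and 4 of those 6 had more than 1 summit. Dhx15, the DEAH-box helicase that takes spent spliceosomes apart and also serves ribosome assembly, had a 3′ untranslated summit of 43.2 at nt 2735 of ENSMUST00000031061, from 90 fragments (72.4 to 110.6). A coding summit on its transcript ENSMUST00000199321 had a fold of 17.1 at nt 2011, from 35 fragments (24.4 to 48.7). These 2 summits lie on different transcripts, and reads that fit both transcripts could have been placed on either. Their intervals do not overlap, and the folds differed 2.53 times. Of the 9 pairs of summits within a member gene this was the only pair whose intervals were apart.

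Ddx39b, the UAP56 helicase of splicing and mRNA export, had 3 summits. Its 3′ untranslated summit at nt 1548 of ENSMUST00000068056 had a fold of 35.1, from 73 fragments (57.2 to 91.8). On ENSMUST00000173731, 2 summits that the list calls coding had folds of 26.1 at nt 2286 (54 fragments, 40.6 to 70.5) and 26.6 at nt 2648 (55 fragments, 41.4 to 71.6). All 3 intervals overlap, and no direct test between the heights was run. The close relative Ddx39a was unlisted; reads that fit both genes could have been placed on either.

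Ddx17, a coregulator helicase known as p72, had only 3′ untranslated summits. They had folds of 21.4 at nt 2875 (44 fragments, 32.0 to 59.1) and 18.0 at nt 4445 (37 fragments, 26.1 to 51.0) of ENSMUST00000054014, and 15.7 at nt 4435 of ENSMUST00000229877 (32 fragments, 21.9 to 45.2). The last 2 lie 10 nt apart in transcript position and may be 1 site on 2 isoforms. Its paralog Ddx5 had no listed summit.

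Ddx42, a helicase gene of the U2 snRNP, had summits in both regions. The 3′ untranslated summit at nt 3614 had a fold of 13.8 (28 fragments, 18.6 to 40.5) and the coding summit at nt 770 had 6.17 (12 fragments, 6.20 to 21.0), a ratio of 2.23 with overlapping intervals. Ddx23, a helicase of the U5 snRNP, had a coding summit of 17.6 at nt 642 (36 fragments, 25.2 to 49.8). Ddx46, which acts when the U2 snRNP joins the branch site, had a coding summit of 9.49 at nt 600 (19 fragments, 11.4 to 29.7). Apart from Dhx15, the splicing helicases of the DEAH-box family, Dhx8, Dhx16, Dhx35 and Dhx38, were unlisted.

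Of the 25 helicases with other roles, Ddx3x alone was listed, or 4% (0.101% to 20.4%). This share was near the 6.71% of all protein-coding genes. Ddx3x, whose protein helps the translation of mRNAs with structured leaders, had a coding summit at nt 2002. Its fold was 17.1 (35 fragments, 24.4 to 48.7). The unlisted genes of this group included the decay factor gene Ddx6, the double-stranded RNA helicase gene Dhx9, the G-quadruplex resolvase gene Dhx36 and the virus sensor genes Ddx58 and Dhx58. The 5 genes that matched by name without a known part in ribosome assembly or RNA unwinding, Ddx11, Gnl1, Nol3, Nol4 and Nol4l, had no listed summit. At the 6.71% share, 0 of 5 (upper limit 52.2%) says nothing particular about them.

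Most member summits lay in coding sequence, and the 3′ untranslated ones were mainly on helicases. Of all 28 member summits, 20 were coding, or 71.4% (51.3% to 86.8%), against 880 of the 1848 other summits, or 47.6% (45.3% to 49.9%). The 3′ untranslated region held 8, or 28.6% (13.2% to 48.7%), against 45.2% (42.9% to 47.5%). No member had a summit in the 5′ untranslated region; 0 of 28 has an exact upper limit of 12.3% (10.7% by the limit of 3 counts), and 7.20% of other summits lay there, so a shortfall was not detectable. Among helicases 7 of 13 summits were coding (53.8%, 25.1% to 80.8%), and among the other members 13 of 15 were (86.7%, 59.5% to 98.3%). The intervals of the 2 subsets overlap, and summits of 1 gene on several isoforms are not independent.

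**Figure D3:**
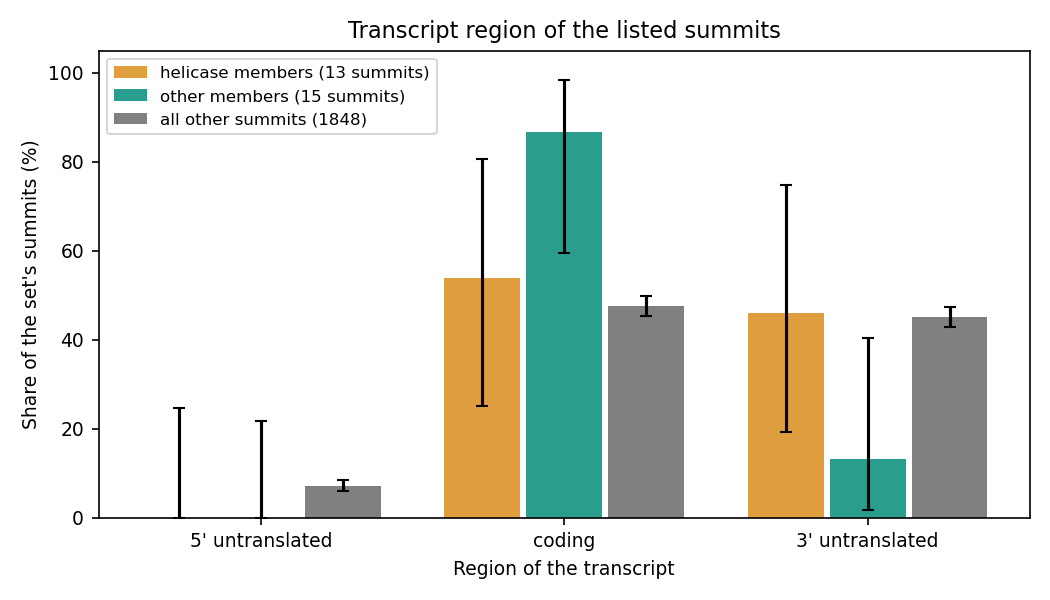
Share of listed summits (y axis, %) in each transcript region (x axis) for helicase members, other members and all other summits, with exact 95% Clopper-Pearson intervals. The coding share is 86.7% for the non-helicase members and 47.6% for all other summits, and neither member set has a 5′ untranslated summit.

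Of the non-helicase members, 6 of 14 genes had a summit close to the transcript start, a pattern seen in the values before it was counted. Of their 15 summits, 7 lay within 200 nt of the start, or 46.7% (21.3% to 73.4%), on the 6 genes Nol7, Nolc1, Pes1, Nop16, Nop9 and Nob1. All 7 were coding, out of 13 coding summits of the non-helicase members (53.8%, 25.1% to 80.8%). The other 8 of the 15 summits ran from nt 337 to nt 3286. Of all other summits outside the group, 211 of 1848 lay that near, or 11.4% (10.0% to 13.0%), and of coding ones 118 of 880, or 13.4% (11.2% to 15.8%). No helicase summit was within 200 nt; 0 of 13 has an exact upper limit of 24.7%. The median position was nt 337 for the non-helicase members and nt 2286 for the helicases, against nt 1245 for all other summits. Transcript and coding lengths were not used here, so the positions are not relative to length. The count depends on the window: within 100 nt lay 3 of the 15 summits, beside 3.84% of all other summits, and within 300 nt again 7, beside 16.9%. Among coding summits alone, the non-helicase members had 23.1% within 100 nt and 53.8% within 300 nt. The other coding summits had 3.30% and 22.7%. No test was run on these shares.

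**Figure D4:**
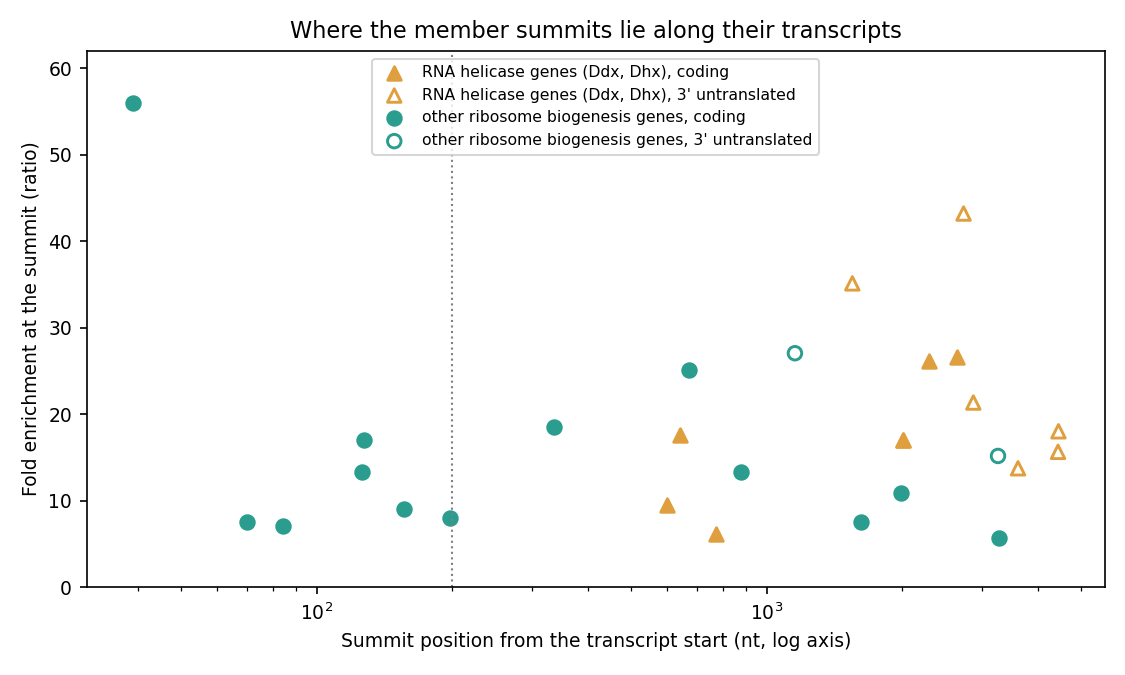
Fold enrichment (y axis, ratio) against summit position from the transcript start (x axis, nt, log axis) for the 28 member summits; triangles are helicase genes, circles the other members, filled symbols coding and open symbols 3′ untranslated summits, and the dotted line marks 200 nt. The 7 summits left of the line are all non-helicase coding summits, from Nol7 at nt 39 to Nob1 at nt 198, and their folds run from 7.12 to 56.0.

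The heights of the group as a whole were close to those of the rest of the list. At the highest summit of each gene, the 21 members had a median fold of 15.2 (quartiles 9.49 and 21.4), and the other 1464 genes had 12.3 (7.12 and 21.0). The interval of the members' median from order statistics, 9.49 to 21.4, includes 12.3. Helicase members had a median of 17.6 over 7 genes and the others 13.3 over 14 genes. Above the median of all listed genes were 14 of the 21 members (66.7%), beside 49.2% of the other genes.

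The members with several listed summits were, Nop16 aside, helicases. Among the 7 listed helicases, 3 had 1 summit, 2 had 2 (Ddx42 and Dhx15) and 2 had 3 (Ddx17 and Ddx39b). Among the 14 others, 13 had 1 summit and Nop16 had 2. In the rest of the list 20.1% of genes had 2 or more, compared with 23.8% of the members. Of the members, 4 genes had summits on 2 transcripts, and such summits may be 1 site. No test was run on these counts.

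The numbers in the names of the peaks show that more signal was called than is listed, both over the whole list and on some members. Peaks were numbered in the order of transcript and position, with 0 breaks in that order over the list. The numbers ran from 6 to 33651, and only 1824 of them were listed. Every listed share and every unlisted gene above therefore rests on a filter that the sources used here do not give. On Ddx17 transcript ENSMUST00000054014 the listed peaks were numbers 8161 and 8164, so 2 further peaks lay between them. On Ddx42 the listed peaks were 1959 and 1961, so 1 lay between. Letters mark the summits of a peak that has several: 9 member summits on 6 genes carried one, and their letters imply at least 23 summits in 8 peaks, of which at least 14 are unlisted. The listed 3′ untranslated summit of Ddx39b, for example, was the fifth of its peak by letter, and that of Polr1c the fourth. For these genes the listed summits are thus fewer than those called. Summits on different transcripts of a gene may also be 1 site, so the listed number is not a bound on the number of sites.

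Genes of the same pathway that the naming rule leaves out were listed about as often. Of 68 such genes, 15 had a summit, or 22.1% (12.9% to 33.8%), and their median fold was 12.3. The highest was Rrs1, which brings a small RNP to the large subunit precursor, with 46.0 in the 3′ untranslated region (96 fragments, 77.8 to 117.2) and 29.0 in coding sequence. Nsa2, a large subunit factor, followed with coding summits of 43.7 at nt 222 and 38.0 at nt 356. Senp3, a SUMO protease of the nucleolus, had 31.3 at nt 104 of a 5′ untranslated region. Of their 21 summits, 17 were coding, 3 were 3′ untranslated and 1 was 5′ untranslated.

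Helicases without a Ddx or Dhx name were listed at about the share of all protein-coding genes. Of 17 genes, only Eif4a2, a paralog of the cap-binding complex helicase Eif4a1, had a summit, with fold enrichment 18.5 in the 3′ untranslated region (38 fragments, 26.9 to 52.2). The share was 5.88% (0.149% to 28.7%), and this interval also includes the 13.2% of the Ddx and Dhx genes. Eif4a1 and Eif4a3, the spliceosome helicase gene Snrnp200 and the decay helicase gene Upf1 were unlisted.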

How the data were processed

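Per the submitters' processing notes, the tools were cutadapt, Bowtie2 and MACS2 on the mouse build GRCm39; versions and parameters are not given in the sources used here. Per the file headers, the authors deposited for each summit a fold enrichment (a ratio), the −log10 of a p-value and a q-value, a position in nt on an Ensembl transcript and a region. Their names point to a single call on merged ac4C libraries. No expression count was used, so no test over libraries was made.

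All 1876 folds were whole multiples of 0.475 (largest deviation 0.00104 of a step), which gives a background of 1.11 fragments and each height as (fold over step) minus 1. The deposited −log10 p-values equalled the Poisson tail of these heights within 0.000474%. The recovery was tested on simulated data. Poisson and Clopper-Pearson intervals were computed with scipy 1.17.1 in Python 3.11.15. Symbols were matched to RefSeq's table for GRCm38.p6 by current or unambiguous older symbol, 1475 of 1485, including all 21 members; 4 of 210 names in the role lists were not matched and were left out. The sequence is from RefSeq, GRCm38.p6. Every listed member was named; of genes outside the rule, the 3 highest per list. Members and lists were chosen with earlier results of these data known.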

Additional observations from a re-analysis of the deposited data

How the results depend on the processing

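No paired analysis was possible because no listed value belongs to a library; for the same reason no replicate could be left out. With only summits at or above the median fold of the whole list (11.4), 14 of the 21 members stayed, 11.3% of 124 genes beside 3.65% of all protein-coding genes; the coding share of their 19 summits was 57.9% and the 3′ untranslated share 42.1%, beside 43.9% and 47.7% of the 940 other summits past the same fold. With the strongest summit per gene the coding share was 71.4%, and with the first listed summit per numbered peak 70.4%. Without splicing helicases, other helicases and genes that match by name alone, 14 of 81 genes were listed (17.3%), with a median fold of 13.3. Of 21 alternatives run, 20 stayed within the interval of the main value, or within 1.5 times of a count. The exception was the share of non-helicase summits near the transcript start: 20.0% within 100 nt in place of 46.7% within 200 nt, and 46.7% within 300 nt; these windows were chosen after seeing the data. A smaller window holds fewer summits by construction. The counts of 14 genes in place of 21 lay exactly at the limit of 1.5 times. The 5′ untranslated share of 0% could not change, since those alternatives only removed summits. Matching by current symbols alone left the 21 genes as they were. Depth is unknown, and member heights ran from 11 to 117 fragments.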
